A study of Rattus norvegicus with 24 samples.

Results

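Surfactant is the film of lipid and protein that lowers surface tension in the alveoli, and it is made by alveolar type 2 cells. These cells assemble the lipid and the hydrophobic proteins in lysosome-related organelles called lamellar bodies, release them into the airspace, and take much of the material back, while alveolar macrophages degrade the rest. Alveolar type 2 cells also renew the alveolar epithelium, and inhaled smoke and mineral dust are known to reach them. The genes described here are 10 genes of that cell type, chosen by gene symbol: the surfactant proteins Sftpa1, Sftpb, Sftpc and Sftpd, the lipid transporter Abca3, the lipid-remodelling enzyme Lpcat1, the protease Napsa, the lamellar body protein Lamp3, the phosphate transporter Slc34a2 and the transcription factor Etv5. All 10 of 10 were measured, out of 14217 genes. Each was represented by its brightest probe set with a single gene symbol.

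RNA of the right caudal lung lobe was hybridised to 24 Affymetrix rat arrays, 1 per rat, from male Sprague-Dawley rats that the labels give as 17 weeks old, while the series text gives a younger range. The 6 groups of 4 rats were smoke with Iraqi sand, smoke with silica, smoke with chamber air, sand with nose-only air, silica with nose-only air, and air by both routes. Cigarette smoke had a target of 0.48 mg/L (WTPM, total particulate matter weighed wet) and was breathed nose-only, 3 hours daily and 5 days weekly. The protocol gives 5 weeks of it, the series text 6. The particle target was 1 mg/m3, breathed in whole-body chambers 18 hours daily, 7 days weekly, during 2 weeks, and rats outside an exposure breathed air by the same route and schedule. All groups shared strain, sex and age, and Sprague-Dawley rats are outbred. The rats are a subset of 17 per group named in the series text.

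Levels and changes are on the log2 scale of the deposited values, so a difference of 1 is a doubling. A change is called where limma's adjusted p over all 14217 genes is under 0.05. Array medians lay between 7.26 and 7.32, and the 19 RNA integrity numbers in the labels between 8.1 and 9.8. Precision is set by having 4 arrays per group. In lung pieces, fewer alveolar type 2 cells and less RNA per cell cannot be told apart. Type 2 cell RNA was present in every array. Sftpc, whose protein is made by no other lung cell type, stood between 14.79 and 14.95 in the 24 rats, within 0.24 of the brightest probe set of its array. So near the top of the array's range, a true difference in Sftpc may be compressed, which was not tested.

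Rats 104 (air), 302 (sand) and 604 (smoke with silica) stood apart from their group mates and are named where they touch a result. In rat 104 all 10 genes were below the mean of its mates, and 9 were below every mate, a position held by 28.8% of all genes. Its level of Lamp3 was lowest relative to its mates, by -0.69. In rat 302, 5 of the 10 genes were below every mate, against 25.1% of all genes, and 4 were above every mate, against 59.6% of all genes. A list of 11 measured heart muscle markers had mean levels of 8.90 in rat 302 and 9.06 in rat 104, and at most 7.34 in the other rats. Array quality weights, where 1 is an array of ordinary quality, came to 0.0446 for rat 302, 0.414 for rat 604 and 0.472 for rat 104.

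Promoter windows are shown for the pair of genes whose calls the results turn on, Lpcat1 and Abca3, and for Sftpb, whose promoter is a textbook model of lung epithelial control. RefSeq (build GRCr8) held a window of 300 bases, from 250 before to 50 after the gene start, for 7 of the 10 genes. Capitals mark the letters of 4 motifs searched on both strands: CTCAAG, a core of NKX2-1 sites, TGTTTNC for FOXA factors, CCGGAA for ETS factors, the family of Etv5, and TCACNCCAC, a sterol regulatory element. The windows are those of Lpcat1 at chr1:31644897-31645196 on the minus strand, Abca3 at chr10:13886834-13887133 on the plus strand and Sftpb at chr4:105917338-105917637 on the plus strand.
Lpcat1: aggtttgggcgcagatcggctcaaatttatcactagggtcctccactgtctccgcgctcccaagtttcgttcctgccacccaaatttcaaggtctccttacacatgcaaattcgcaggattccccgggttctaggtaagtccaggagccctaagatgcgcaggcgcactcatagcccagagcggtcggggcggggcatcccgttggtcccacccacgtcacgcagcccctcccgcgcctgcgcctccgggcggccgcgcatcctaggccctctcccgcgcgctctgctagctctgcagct
Abca3: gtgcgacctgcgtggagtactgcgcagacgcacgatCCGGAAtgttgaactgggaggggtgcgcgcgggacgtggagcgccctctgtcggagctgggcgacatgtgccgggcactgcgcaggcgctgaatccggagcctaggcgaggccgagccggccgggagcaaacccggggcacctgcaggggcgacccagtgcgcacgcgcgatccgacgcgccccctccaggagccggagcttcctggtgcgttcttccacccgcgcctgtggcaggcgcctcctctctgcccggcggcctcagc
Sftpb: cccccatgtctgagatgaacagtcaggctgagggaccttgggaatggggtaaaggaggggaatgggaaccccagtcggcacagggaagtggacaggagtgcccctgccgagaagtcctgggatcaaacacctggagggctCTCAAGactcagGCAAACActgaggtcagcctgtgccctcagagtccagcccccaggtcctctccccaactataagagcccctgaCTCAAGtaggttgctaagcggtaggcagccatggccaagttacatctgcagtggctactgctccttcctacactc
The Lpcat1 window held none of the 4 motifs, and the Abca3 window held 1 ETS match. The Sftpb window held 2 NKX2-1 matches around 1 FOXA match on the opposite strand, and no matches overlapped. These are short letter strings that occur often. Of all 33469 windows in the table, 15.8% held the NKX2-1 letters, 21.1% the FOXA letters, 15.0% the ETS letters and 1.12% the sterol element. A match is a description of the sequence and not a shown binding site.

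Lpcat1 was lower in the 12 smoke rats than in the 12 rats without smoke, averaged over the 3 particle conditions. Lpcat1 encodes the acyltransferase that makes the dipalmitoyl phosphatidylcholine of surfactant and also acylates lyso-platelet-activating factor. It fell by 24.3% (log2 difference -0.40 ± 0.06, standard error, 95% interval -0.53 to -0.27, adjusted p = 0.000663). Lpcat1 was the only 1 of the 10 called, against 3.70% of all genes that fell and 6.39% called in both directions, and it ranked 58 of 14217 by p. Without rats 104, 302 and 604, 2 of the 10 were called, Lpcat1 at -0.42 (adjusted p = 0.000174) and Abca3 at -0.15 (adjusted p = 0.0241). Over all genes that setting called 1182, against 908 with all rats.

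By rat, Lpcat1 stood at 11.30, 11.31, 11.34 and 11.54 with smoke and sand, against 11.71, 11.77, 11.90 and 12.13 with sand alone. It stood at 11.17, 11.39, 11.43 and 11.69 with smoke and silica, against 11.61, 11.77, 11.81 and 12.07 with silica alone. It stood at 11.27, 11.34, 11.41 and 11.47 with smoke alone, against 11.58, 11.62, 11.71 and 11.82 in air. Thus 11 of 12 smoke rats lay below every rat without smoke, and the exception was rat 604 at 11.69. The lowest rat without smoke was rat 104, so 2 of the rats that stand apart form the border between the exposures.

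**Figure D1:**
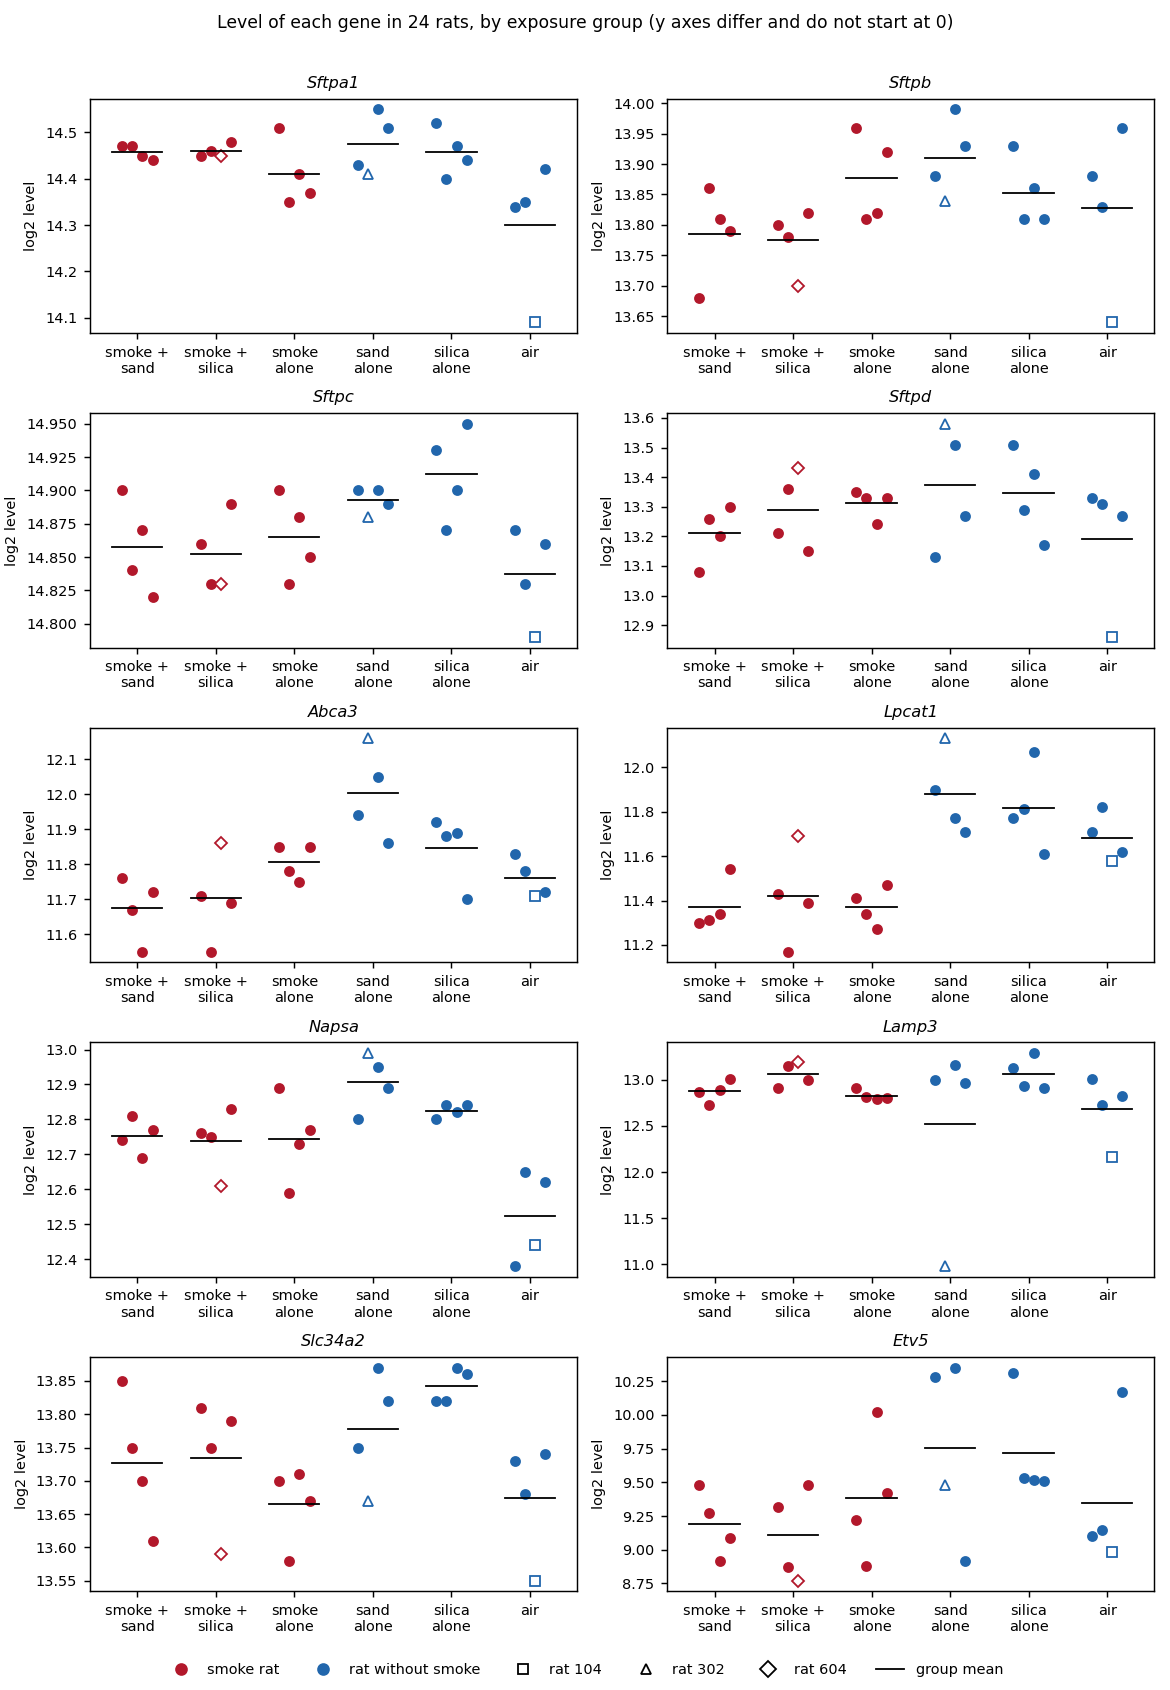
Log2 level of each of the 10 genes (y axis, a separate range per panel) in the 6 exposure groups (x axis), 1 point per rat, with smoke rats in red, rats without smoke in blue, group means as lines and rats 104, 302 and 604 as open symbols. In Lpcat1 the smoke groups lie low, with rat 604 at 11.69 highest among them, Napsa is lowest in air, and rat 302 at 10.98 stands far below the rest in Lamp3.

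The Lpcat1 difference lay below 0 in each particle condition, and it passed in 1 of them. With sand it fell by 0.50 ± 0.11 (adjusted p = 0.0301), and the groups did not overlap. With silica it stood at -0.40 ± 0.11 (adjusted p = 0.213), and without particles at -0.31 ± 0.11 (adjusted p = 0.258), where the groups did not overlap either, against 5.08% of all genes lower without overlap. The smoke difference with sand less that without particles was -0.19 ± 0.16 (95% interval -0.51 to 0.13, adjusted p = 0.706), and with silica less that without particles -0.08 ± 0.16 (95% interval -0.41 to 0.24, adjusted p = 1.00). These intervals hold a difference of 0 and also differences as large as the smoke effect itself. Among the 3 smoke groups the means were 11.37 ± 0.11 with sand, 11.42 ± 0.21 with silica and 11.37 ± 0.09 without particles, against 11.88 ± 0.19 with sand alone, 11.82 ± 0.19 with silica alone and 11.68 ± 0.11 in air (SD, n = 4 each).

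Like Lpcat1, Abca3 was lower with smoke and sand than with sand alone. It encodes the transporter that loads phospholipid into lamellar bodies, and loss of the human gene causes fatal surfactant deficiency. By rat it stood at 11.55, 11.67, 11.72 and 11.76 with smoke and sand, against 11.86, 11.94, 12.05 and 12.16 with sand alone. Every smoke rat was below every rat with sand alone. Abca3 fell by 20.4% in that comparison (-0.33 ± 0.07, adjusted p = 0.0334).

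In that comparison 2 of the 10 genes fell, Lpcat1 and Abca3, against 0.928% of all genes that fell and 1.29% called in both directions. These 2 were also the members whose groups did not overlap there, and 6.95% of all genes were lower without overlap. Both calls ended without rat 302, which had the highest level of both genes among the sand rats, and without each smoke rat of the comparison, and that of Abca3 also without rat 304. Over the single rats left out, the adjusted p reached 0.0858 for Lpcat1 and 0.0847 for Abca3. Without rat 302, 92 of all genes were called in that comparison, against 184 with all rats. Without the 3 rats that stand apart, Lpcat1 was called at -0.42 (adjusted p = 0.0436) and Abca3 stood at -0.28 (adjusted p = 0.0504).

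Away from sand the difference of Abca3 was smaller. It stood at -0.15 ± 0.07 with silica (adjusted p = 0.647) and 0.05 ± 0.07 without particles (adjusted p = 0.936), and averaged over the particle conditions at -0.14 ± 0.04 (adjusted p = 0.0514). The smoke difference with sand less that without particles was -0.38 ± 0.10 (adjusted p = 0.358), which did not pass. The sand rats without smoke had the highest Abca3 of the 6 groups and the smoke rats with sand the lowest. Set against air, smoke with sand stood at -0.08 ± 0.07 for Abca3 (adjusted p = 0.768) and sand alone at 0.25 ± 0.07 (adjusted p = 0.310). For Lpcat1 smoke with sand stood at -0.31 ± 0.11 against air (adjusted p = 0.237). A second Abca3 probe set ran the same way for smoke with sand, at -0.31 ± 0.09, and averaged, at -0.12 ± 0.05. Set against air it did not, with 10.86, 10.92, 11.06 and 11.09 with smoke and sand and 10.67, 10.93, 10.93 and 10.98 in air. It had 10.77, 10.84, 10.86 and 11.01 with smoke and silica, so smoke with sand was not its lowest group.

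None of the surfactant proteins themselves passed the test with smoke averaged over particle conditions. Sftpa1 and Sftpd are collectins that bind microbes, and Sftpb and Sftpc are the hydrophobic proteins that spread the lipid film. Averaged over particle conditions, Sftpa1 stood at 0.03 (95% interval -0.04 to 0.11), Sftpb at -0.05 (-0.13 to 0.03), Sftpc at -0.02 (-0.07 to 0.03) and Sftpd at -0.03 (-0.16 to 0.10), with adjusted p from 0.413 to 0.781. As a percentage, the lower bound was -5.06% for Sftpc and -8.73% for Sftpb. The 6 group means of Sftpc spanned 0.08, with a residual SD of 0.03 between rats.

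By rat, Sftpc had a lowest, median and highest level of 14.82, 14.85 and 14.90 in the 12 smoke rats, against 14.79, 14.88 and 14.95 in the 12 rats without smoke. Sftpb had 13.68, 13.81 and 13.96 in smoke rats, against 13.64, 13.87 and 13.99 without smoke. The exposures overlapped widely in both, and rat 104 was the lowest of all 24 in each. A second, dimmer probe set of Sftpb went its own way, at 0.84 ± 0.23 for smoke with sand, -0.51 ± 0.23 with silica and -0.54 ± 0.23 without particles, so Sftpb is uncertain. The second probe set of Sftpa1 stood at 0.04 ± 0.04 averaged over particle conditions, close to the first.

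The other 4 genes were not called in any smoke comparison. Napsa, the aspartic protease that helps process surfactant proteins B and C, stood at -0.01 ± 0.04 averaged over particle conditions. Slc34a2, the phosphate cotransporter whose loss in humans causes alveolar microlithiasis, stood at -0.05 ± 0.04. Lamp3, a membrane protein of lamellar bodies, stood at 0.16 ± 0.17, and at -0.01 without rat 302. That rat had 10.98, against 12.96 to 13.16 in its mates. Over the 24 arrays, which share their normalization, Lamp3 and the mean of the heart muscle list had a Pearson r of -0.79, and -0.35 without the 3 rats that stand apart.

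Etv5, an ETS factor needed in mice to maintain type 2 cells, varied widely between rats. It stood at -0.57 ± 0.31 for smoke with sand, -0.61 ± 0.31 with silica, 0.04 ± 0.31 without particles and -0.38 ± 0.18 averaged (adjusted p from 0.197 to 0.994). With smoke and silica its rats had 8.77, 8.87, 9.32 and 9.48, against 9.51, 9.52, 9.53 and 10.31 with silica alone. These groups did not overlap, and neither did those of Slc34a2 in the same comparison, against 4.35% of all genes lower without overlap. The residual SD of Etv5 was 0.47, wider than its averaged difference, and its second probe set was dim, at a mean of 6.64.

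**Figure D2:**
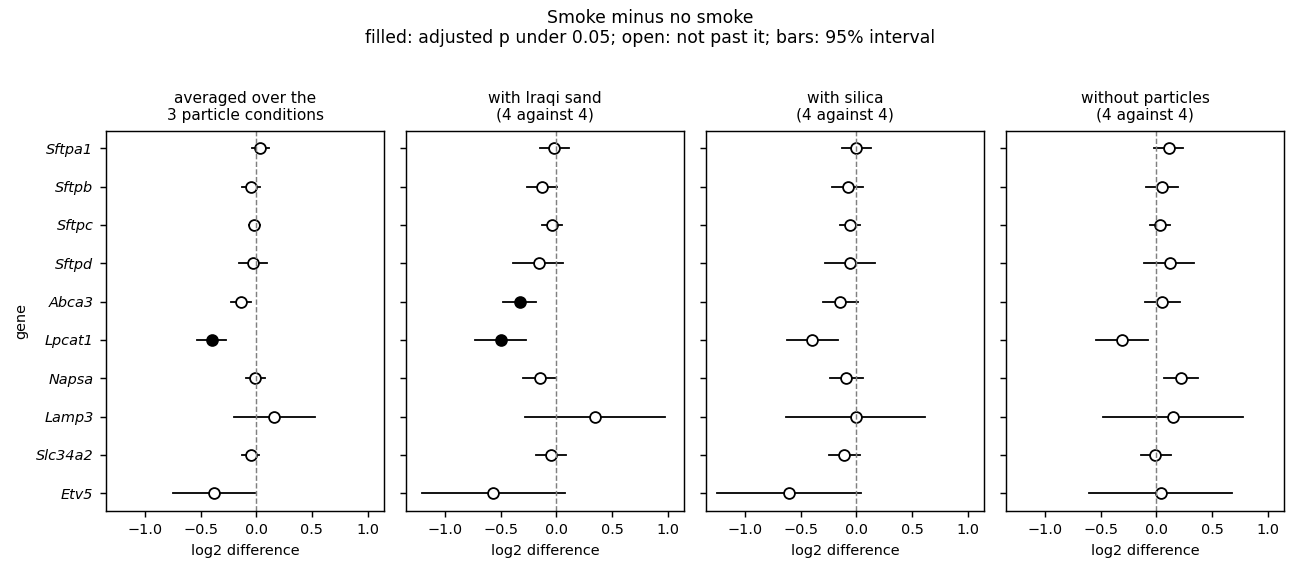
Log2 difference of smoke minus no smoke (x axis) for the 10 genes (y axis), averaged over the 3 particle conditions and within each of them, with 95% intervals as bars and called differences as filled points. Lpcat1 lies left of 0 in all 4 panels, called in the averaged comparison at -0.40 and with sand at -0.50, Abca3 is called with sand at -0.33, and the intervals of Lamp3 and Etv5 are the widest.

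Smoke without particles called 0 of the 10 genes in limma, against 0.893% of all genes in both directions, and 2 of the 10 had an unadjusted p under 0.05, against 9.95% of all genes. These 2 were Lpcat1 and Napsa, the second at 0.22 ± 0.07 (adjusted p = 0.194). Smoke with silica called 0 of the 10 in limma, against 0.00703% of all genes, or 1 gene in 14217, and 1 of the 10 had an unadjusted p under 0.05, Lpcat1, against 8.17% of all genes. The median difference of the 10 genes was -0.04 averaged over particle conditions, -0.14 with sand, -0.09 with silica and 0.05 without particles, beside medians over all genes of -0.021, -0.045, -0.010 and -0.010.

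Particles without smoke went with higher levels of several of these genes, none of which passed in limma. Iraqi sand alone against air called 0 of 10, against 0.0281% of all genes, with 3 of 10 at an unadjusted p under 0.05 against 10.2% of all genes. Silica alone against air called 0 of 10, against 0.141% of all genes, with 3 of 10 at an unadjusted p under 0.05 against 5.00%. With sand 9 of 10 differences were above 0, at a median of 0.18, and with silica 10 of 10, at a median of 0.15, beside medians of 0.037 and -0.009 over all genes. Both comparisons share the 4 air rats, of which rat 104 was low in all 10 genes. Without rat 104, 9 of 10 were above 0 in each comparison, at a median of 0.09 in both. Marker lists of other cells were also shifted with silica alone, where 15 of 16 macrophage markers were above 0, at a median of 0.30. There 0 of 12 fibroblast and smooth muscle markers (median -0.36), 0 of 11 heart muscle markers (-0.77), 0 of 11 T and NK cell markers (-0.32) and 0 of 9 endothelial markers (-0.18) were above 0. With sand alone the medians were 0.25 for macrophage, -0.31 for fibroblast, -0.29 for heart muscle, -0.18 for T and NK cell and -0.19 for endothelial markers. These medians include rat 104, the highest air rat in each of these lists. In the heart muscle list rat 104 had a mean level of 9.06, against 5.99, 6.26 and 6.45 in its mates. Silica rats had 5.62 to 6.77 there, overlapping those mates, and sand rats 5.67 to 5.92 apart from rat 302 at 8.90. In the fibroblast list rat 104 had 10.49, against 9.96 to 10.24 in its mates and 9.44 to 10.03 with silica alone. The part of these cells in the differences of the 10 genes was not tested.

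Napsa stood nearest to a call. By rat it had 12.80, 12.89, 12.95 and 12.99 with sand alone, and 12.80, 12.82, 12.84 and 12.84 with silica alone, against 12.38, 12.44, 12.62 and 12.65 in air. The air group was the lowest of the 6, and neither particle group overlapped it. The differences were 0.38 ± 0.07 with sand (95% interval 0.24 to 0.53, adjusted p = 0.0545) and 0.31 ± 0.07 with silica (adjusted p = 0.128). Without rat 104 they were 0.36 (adjusted p = 0.185) and 0.28 (adjusted p = 0.455).

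Of the other genes, Sftpa1 stood at 0.17 ± 0.06 with sand and 0.16 ± 0.06 with silica (adjusted p = 0.372 and 0.894). Abca3 stood at 0.25 ± 0.07 with sand (adjusted p = 0.310), and Slc34a2 at 0.17 ± 0.07 with silica (adjusted p = 0.784). In 3 of the 10 genes, Sftpc, Abca3 and Napsa, all sand rats lay above all air rats, against 3.40% of all genes. In 3 of the 10, Sftpc, Napsa and Slc34a2, all silica rats lay above all air rats, against 3.24% of all genes. Sftpc stood at 0.05 ± 0.04 with sand and 0.08 ± 0.04 with silica. The second Abca3 probe set stood at 0.41 ± 0.09 with sand and 0.16 ± 0.09 with silica. That of Sftpb stood at -0.70 ± 0.23 with sand and 0.27 ± 0.23 with silica, where the first stood at 0.08 ± 0.07 and 0.03 ± 0.07. With sand the 2 Sftpb probe sets thus differed in sign. Second probe sets stood at 0.12 and 0.09 for Sftpa1 and at 0.16 and 0.04 for Etv5, with sand and silica in turn. Without rat 104, Sftpa1 stood at 0.10 with sand and 0.08 with silica, and Abca3 at 0.23 with sand.

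**Figure D3:**
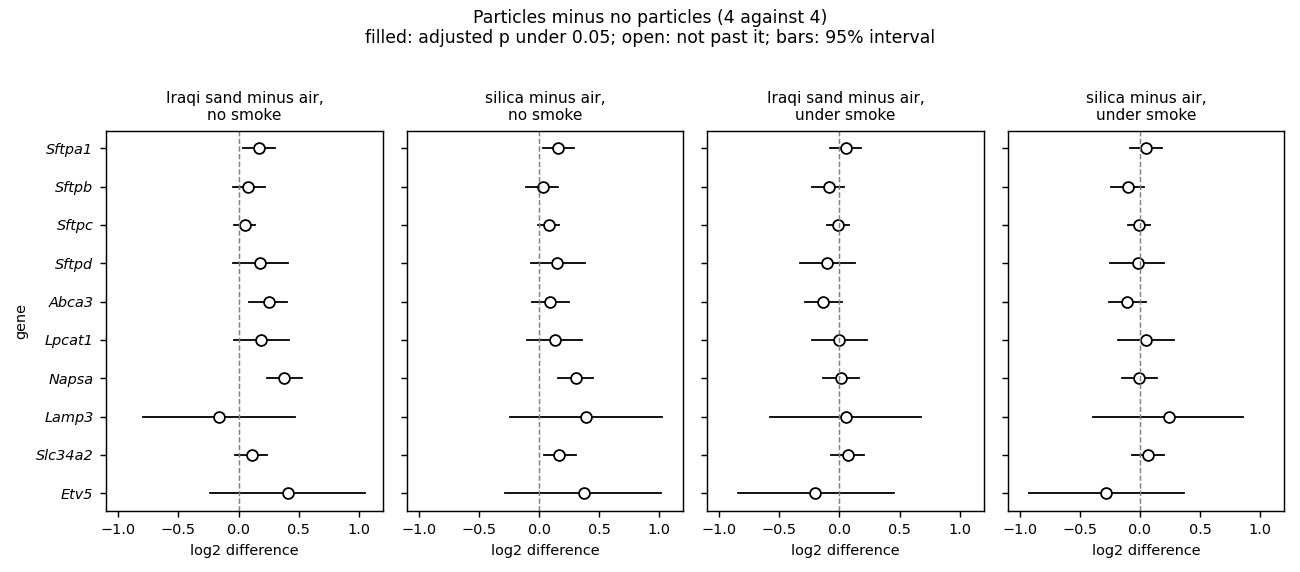
Log2 difference of particle minus no particle (x axis) for the 10 genes (y axis), for sand and silica without smoke and under smoke, with 95% intervals as bars and all points open since none was called. Without smoke Napsa lies farthest right of 0 relative to its interval, at 0.38 with sand and 0.31 with silica, and under smoke it lies at 0.01 and -0.01.

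Under smoke no particle difference passed. Iraqi sand under smoke called 0 of 10 in limma, against 0.0141% of all genes, and silica under smoke called 0 of 10, against 0.0141%, with 0 of 10 at an unadjusted p under 0.05 in either, against 3.83% of all genes for sand and 8.29% for silica. The largest were those of Etv5, at -0.20 ± 0.31 with sand and -0.28 ± 0.31 with silica, and of Lamp3 at 0.24 ± 0.30 with silica, and Abca3 stood at -0.14 ± 0.07 with sand. Napsa stood at 0.01 ± 0.07 with sand and -0.01 ± 0.07 with silica, its smoke groups at 12.75 ± 0.05 with sand, 12.74 ± 0.09 with silica and 12.74 ± 0.12 without particles (SD, n = 4 each). The test of the difference between the particle effect with and without smoke gave -0.38 ± 0.10 for sand (adjusted p = 0.358) and -0.31 ± 0.10 for silica (adjusted p = 1.00). Neither passed. In these interaction tests limma called 0 of 10 genes for sand, against 0.00703% of all genes, and 0 of 10 for silica, against 0% of all genes. At an unadjusted p under 0.05 there were 2 for sand, against 8.84% of all genes, and 1 for silica, against 2.24%.

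Averaged over smoke and air, sand called 0 of 10 in limma, against 0% of all genes, and silica 0 of 10, against 0.345%. At an unadjusted p under 0.05 there were 2 for sand, against 5.22% of all genes, and 3 for silica, against 11.7%. Napsa stood at 0.20 ± 0.05 for sand (adjusted p = 0.351) and 0.15 ± 0.05 for silica (adjusted p = 0.233). The combined exposures were also set against air alone. Smoke with sand called 0 of 10 in limma, against 0.978% of all genes, and smoke with silica 0 of 10, against 3.77%. Each had 3 at an unadjusted p under 0.05, against 10.9% of all genes with sand and 18.5% with silica. Those 3 were Lpcat1, at -0.31 ± 0.11 and -0.26 ± 0.11, Napsa, at 0.23 ± 0.07 and 0.22 ± 0.07, and Sftpa1, at 0.16 ± 0.06 in both (adjusted p from 0.0986 to 0.313). Without rat 104, Sftpa1 stood at 0.09 in both (adjusted p = 0.809 with sand and 0.507 with silica).

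Within groups, the 10 genes did not move as a block from rat to rat. After each group mean was removed, the 45 pairs had a median Pearson r of 0.25 over 24 rats, from -0.45 to 0.82, and 31 pairs were above 0. The highest pairs were Sftpa1 with Sftpb at 0.82, Abca3 with Lpcat1 at 0.75 and Sftpc with Slc34a2 at 0.68, and the lowest was Lpcat1 with Slc34a2 at -0.45. Without rats 104, 302 and 604 these pairs stood at 0.68, 0.56, 0.63 and -0.26 over 21 rats, and the median was 0.21. These values describe levels that share an array and its normalization. Lamp3 changed most in this respect, with r to Sftpd of -0.04 over 24 rats and 0.59 over 21.

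**Figure D4:**
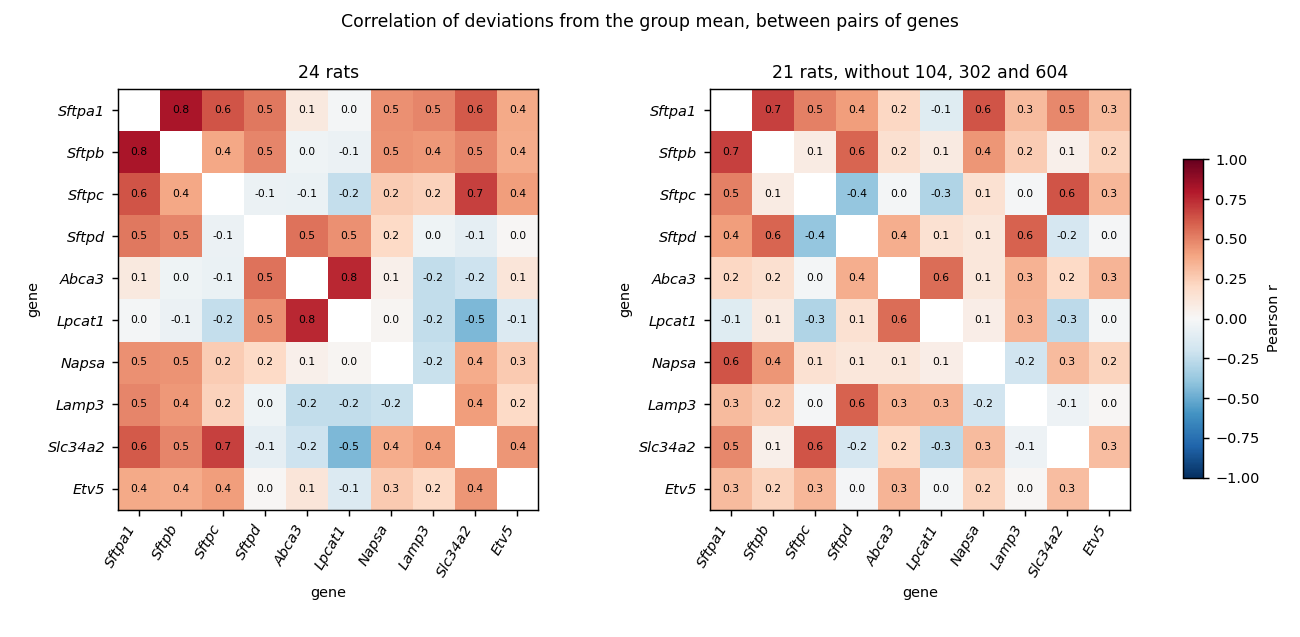
Pearson correlation (colour and number) of the rat-to-rat deviations from the group mean between each pair of the 10 genes (both axes), over 24 rats at left and over 21 rats at right. Sftpa1 with Sftpb at 0.82 and Abca3 with Lpcat1 at 0.75 are the deepest red at left, and stand at 0.68 and 0.56 at right.

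The genes whose level over the 24 rats was most like the mean of the 10 were Kcne2, Scp2, Tmem50b, Adk and Defb4, with Pearson r from 0.74 to 0.83, and 0.60 to 0.84 within groups. Those most like Lpcat1 were Adra1b at 0.87, Sumo3 at 0.86, and Adck5, Unc13d and Mpzl2 at 0.84 each. Adra1b, an adrenergic receptor, fell by 0.66 with smoke averaged over particle conditions (adjusted p = 0.000111), and Mpzl2 by 0.39 (adjusted p = 0.000104). Since the genes were chosen by their level over all 24 rats, smoke difference included, these falls follow in part from the choice. Within groups Adra1b had an r of 0.65 to Lpcat1, and Mpzl2 an r of 0.44. Those most like Abca3 were Nelfcd, St3gal5, Kif3c, Dnpep and Cdk5rap3, from 0.81 to 0.83.

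Lists of other genes of the pathway are set beside the shares over all genes, of which 2.69% rose and 3.70% fell with smoke averaged over particle conditions. Of 32 genes of surfactant lipid synthesis 0 rose and 2 fell, namely Acly, which makes cytosolic acetyl-CoA, by 0.16 ± 0.04 (adjusted p = 0.0118), and the mitochondrial citrate carrier Slc25a1, by 0.26 ± 0.07 (adjusted p = 0.0381). With sand 2 of the 32 fell, Slc25a1 by 0.60 ± 0.13 and the phosphatidate phosphatase Lpin1 by 0.46 ± 0.11 (adjusted p = 0.0248 and 0.0420). Over all genes 0.928% fell in that comparison. Without particles 1 rose, against 0.760% of all genes, the fatty acid binding protein Fabp5, by 0.70 ± 0.16 (adjusted p = 0.0408). The median of the list was -0.02 averaged and -0.15 with sand.

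Of 24 measured genes of surfactant processing, secretion and clearance 3 rose and 0 fell, averaged over particle conditions. These were the sterol transporter Abcg1, by 0.43 ± 0.07, the receptor subunit Csf2ra, by 0.33 ± 0.07, and the purinergic receptor P2ry2, which triggers surfactant secretion, by 0.34 ± 0.07 (adjusted p = 0.00154, 0.00732 and 0.00894). Abcg1 and Csf2ra act in surfactant clearance by macrophages. Without particles these 3 and the growth factor Csf2, by 0.62 ± 0.12 (adjusted p = 0.00843), rose. Csf2 also rose with silica alone, by 0.66 ± 0.12 (adjusted p = 0.0148), where 0.141% of all genes rose.

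Of 18 measured transcription factors of alveolar type 2 cells 1 fell with smoke averaged over particle conditions. It was Srebf2, a regulator of sterol synthesis, by 0.31 ± 0.09 (adjusted p = 0.0432). Silica alone went with a rise of Foxa2, a factor of lung epithelium, by 0.46 ± 0.08 (adjusted p = 0.0174). Among 16 genes of FGF and ERK signalling, which is known to induce Etv5, those nearest to a call with smoke averaged went in opposite directions. Etv4, a relative of Etv5, stood at 0.31 ± 0.10 and Hbegf at -0.15 ± 0.05 (adjusted p = 0.0589 and 0.0593). Of 25 other type 2 markers 2 rose with smoke averaged over particle conditions, the chitinase-like Chi3l1 by 0.77 ± 0.17 and the lipid receptor Cd36 by 0.49 ± 0.15 (adjusted p = 0.0115 and 0.0494), both also known from macrophages. With smoke without particles 3 of the 25 rose, Chi3l1 by 1.29 ± 0.30, the epithelial mucin Muc1 by 0.42 ± 0.09 and Npc2, a lysosomal sterol carrier, by 0.36 ± 0.08 (adjusted p = 0.0415, 0.0197 and 0.0272). Npc2 also rose with silica alone, by 0.40 ± 0.08 (adjusted p = 0.0371). Of these 25 markers 20 were above 0 with sand alone, at a median of 0.16, and 22 with silica alone, at a median of 0.13. The medians over all genes were 0.037 and -0.009 in turn. Both counts include rat 104, the lowest air rat in this list, with a mean level of 11.03, against 11.08 to 11.20 in its mates.

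Markers of other cells moved with smoke beside the fall of Lpcat1. Of 16 measured alveolar macrophage markers 10 rose and 0 fell, averaged over particle conditions, at a list median of 0.50. The log2 of their summed level lay between 15.89 and 16.08 with smoke and sand, 16.02 and 16.20 with smoke and silica and 15.93 and 16.24 with smoke alone. It lay between 15.48 and 15.82 with sand alone, 15.56 and 15.91 with silica alone and 15.38 and 15.47 in air. Of 11 alveolar type 1 markers 2 fell, the receptor Ager by 0.20 ± 0.05 and the water channel Aqp5 by 0.24 ± 0.05 (adjusted p = 0.0120 and 0.00761), and 10 of the 11 were below 0. Among lymphocyte markers (T and NK) 7 of 11 fell, and among neutrophil markers 2 of 9 rose. RMA values have no 0, so no marker is listed at 0. Of 13 club and secretory cell markers 3 rose, Agr2 by 1.66 ± 0.37, Aqp3 by 1.95 ± 0.38 and the airway mucin Muc5b by 1.99 ± 0.50, and Cyp4b1 fell by 0.71 ± 0.14 (adjusted p from 0.00302 to 0.0215). A single marker was called in each of 4 further lists, where ciliated Dynlrb2 rose by 0.65, fibroblast Dcn rose by 0.53, endothelial Cldn5 fell by 0.36 and plasma cell Jchain fell by 0.70. The part of these cells in the Lpcat1 difference was not tested.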

How the data were processed

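Values of 24 arrays, 1 lung lobe each, were used as deposited, on the log2 scale. RMA made them, per the submitters' processing notes, with a version not given in the sources used here. RMA brings the probe intensities of the arrays to 1 distribution before they are summarised by probe set, and array medians still ranged from 7.26 to 7.32. That step can remove changes shared by most genes. Differences of very bright and very dim probe sets may be compressed, which was not tested. Of 31099 probe sets 57 controls were left out, and 20826 carried exactly 1 symbol in the platform annotation. The brightest of these per gene gave 14217 genes. The RefSeq table of GRCr8 held 20758 of those probe sets by Entrez number. It gave another symbol for 0 of them.

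One linear model of 6 group means, with 18 residual degrees of freedom, covered all 24 arrays (R 4.3.3, limma 3.58.1, moderated by eBayes). The 14 comparisons were two-sided, with Benjamini-Hochberg adjustment over all genes at 0.05, after a test on simulated data. Alternatives were other shrinkage, filters, probe set means, array weights, scalings, the RNA integrity number, fewer arrays and single rats left out. The labels gave no batch. The rats are separate animals, numbered without repeats across groups, so no pairing was fitted. The members, lists and alternatives were chosen with earlier results of these data known. All 10 members are named; from other lists up to 4 called genes with the largest moderated t, or else up to 2 with the smallest p; and the 5 genes of most similar level.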

Additional observations from a re-analysis of the deposited data

Results flagged for a closer look

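In each of the 60 sets of 4 rats, 1 per gene and group, the gap between the highest or lowest rat and its nearest mate was set against the range by Dixon's test at its 95% limit. Chance alone flags about 1 in 20 such sets. Here 4 stood past it, and in each 1 rat lay far from its mates. Sftpd was 12.86 in air rat 104, against 13.27 to 13.33 in its mates. Lamp3 was 10.98 in sand rat 302, against 12.96 to 13.16. Etv5 was 10.31 in silica rat 501, against 9.51 to 9.53, and 10.17 in air rat 105, against 8.98 to 9.15. The causes were not tested.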

How the results depend on the processing

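The call of Lpcat1 under smoke averaged over particle conditions was made in all 10 other settings and in all 24 fits without 1 rat, at -0.43 to -0.37 in the fits without 1 rat (adjusted p up to 0.00901 over all of these). Abca3 joined it, making 2 calls, with a mean-variance trend in robust eBayes, a filter at the median level, array quality weights, arrays centred on their medians and without rats 104, 302 and 604. Over all genes these settings called 899, 784 (of 7109 tested), 2651, 900 and 1182 in turn, against 908 in the main fit. Smoke with sand gave 0 calls on the arrays of these groups alone and on 19 arrays with or without the RNA integrity number. Over all genes these settings called 0, 10 and 21, against 184 in the main fit. Smoke with sand gave 1 call, Lpcat1, after quantile normalization over again or without the 3 rats, where 98 and 139 of all genes were called. Iraqi sand alone gave 1 call, Napsa, in that eBayes setting, with that filter, with probe sets averaged per gene and with array weights. Over all genes these called 5, 5 (of 7109 tested), 6 and 201 in turn, against 4 in the main fit. Array weights also gave 2 calls for smoke alone, 1 for smoke with silica, 1 for silica alone, 1 for sand averaged, 2 for silica averaged, 2 for smoke with sand against air and 2 for smoke with silica against air. That setting raised the calls over all genes as well. They were 1119 against 127 for smoke alone, 250 against 1 for smoke with silica and 80 against 20 for silica alone. For sand averaged they were 89 against 0, and for silica averaged 843 against 49. In the comparisons with air they were 1172 against 139 for smoke with sand and 2477 against 536 for smoke with silica. Smoke with silica against air gave 1 without the 3 rats, where 586 of all genes were called, against 536 in the main fit. Leaving out 1 rat at a time gave 1 to 2 calls for smoke averaged, 0 to 2 for smoke with sand, 0 to 1 for sand alone and 0 to 1 for smoke with silica against air, and 0 in the other 10 comparisons. The smoke with sand count was 0 without rat 302, 402, 404, 405 or 406 and 1 without rat 304. Without rat 302 the calls over all genes were 1463 against 908 for smoke averaged and 92 against 184 for smoke with sand. For smoke with silica against air, where Napsa was called without that rat, they were 1777 against 536. Without rat 604, where Abca3 also joined for smoke averaged, 659 of all genes were called there, against 908. No called difference changed sign, and 125 of 140 differences kept their side of the threshold in every setting. No paired analysis was possible because the groups share no rat numbers. The causes of these shifts were not tested. The 19-array fits left out the rats without an RNA integrity number, rats 104 and 406 among them. There, fewer arrays and the choice of rats left out cannot be told apart.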
